A study of Mus musculus with 4 samples.

Results

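The genes described here encode 8 proteins of base excision repair, Parp1, Xrcc1, Apex1, Tdg, Mbd4, Smug1, Ung and Lig3, a set tied to the reprogramming of the germline. Membership was by gene name alone, and every probe of a listed gene was taken. That gave 8 of 18322 genes with a named probe, measured by 11 of the 41153 probes kept on the array, and 11 of the 22440 that entered the test between genotypes. The RNA came from mouse genital ridges at embryonic day 11.5, from cells sorted as positive for mVenus, a fluorescent reporter carried as a Blimp1-mVenus transgene to mark primordial germ cells. HP1γ-null embryos (HP1γ-/-; Blimp1-mVenus tg) were homozygous for a gene-trap allele of Cbx3, the gene of heterochromatin protein HP1γ. Wild-type embryos (wild-type; Blimp1-mVenus tg) had no trap allele, and the transgene was common to both genotypes. Each of the 4 arrays held 1 pool of RNA from 5 or 6 embryos of a genotype, about 500 to 3500 sorted cells per embryo, so that there were 2 HP1γ-null and 2 wild-type pools and no value of a single embryo.

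Base excision repair takes out single damaged or misplaced bases. A DNA glycosylase cuts the base from its sugar, an endonuclease nicks the strand at the empty site, and a polymerase and a ligase fill and seal the gap, while poly(ADP-ribose) polymerase and a scaffold protein gather at the nick. In primordial germ cells, the precursors of sperm and eggs, the pathway has been studied as a route by which methylated cytosine is removed from DNA, since the glycosylase TDG cuts out oxidised forms of methylcytosine and other glycosylases cut out its deaminated products.

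The promoters of 3 members are shown, since their levels had 3 different patterns over the pools: Apex1 was higher and Tdg lower in both HP1γ-null pools than in either wild-type pool, and Ung differed most between pools of 1 genotype. Each line gives the 250 bases before the start used for the gene's promoter, on its own strand, in GRCm38.p6. That start can lie inside the gene as annotated. The last 24 bases of the Tdg window and the last 69 of the Ung window lie inside the gene as annotated. Capitals mark motifs searched on both strands: the E-box CACGTG, the CCAAT box CCAAT and the GC box GGGCGG, with no overlap between matches.
Apex1: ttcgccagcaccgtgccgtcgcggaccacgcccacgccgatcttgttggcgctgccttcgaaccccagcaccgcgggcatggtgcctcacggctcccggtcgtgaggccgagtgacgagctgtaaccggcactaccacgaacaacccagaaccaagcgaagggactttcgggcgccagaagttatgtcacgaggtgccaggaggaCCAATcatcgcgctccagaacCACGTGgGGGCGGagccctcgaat
Tdg: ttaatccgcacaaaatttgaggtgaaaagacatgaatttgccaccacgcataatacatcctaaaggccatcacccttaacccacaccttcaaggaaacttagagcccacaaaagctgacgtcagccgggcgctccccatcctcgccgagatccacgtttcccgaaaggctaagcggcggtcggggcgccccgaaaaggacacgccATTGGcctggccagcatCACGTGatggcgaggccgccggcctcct
Ung: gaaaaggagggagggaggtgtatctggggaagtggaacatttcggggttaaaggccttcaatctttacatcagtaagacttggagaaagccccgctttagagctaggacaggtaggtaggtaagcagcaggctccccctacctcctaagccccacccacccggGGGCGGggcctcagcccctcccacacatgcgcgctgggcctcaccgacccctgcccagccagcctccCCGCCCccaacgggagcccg

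The Apex1 window is chr14:50924699-50924948 on the plus strand, with 28 CpG dinucleotides, an E-box that begins 24 bases before the start and 1 CCAAT box. The Tdg window is chr10:82629588-82629837 on the plus strand, with 19 CpG dinucleotides, and its E-box begins 28 bases before the start. The Ung window is chr5:114130185-114130434 on the plus strand, with 10 CpG dinucleotides and 2 GC boxes, and no CACGTG in these letters. The E-box was present in 4 of the 8 members, Parp1, Apex1, Tdg and Lig3, and in 6.02% of the 32851 promoter windows of the same length. CCAAT was found in 5 of 8 members, against 33.8% of all windows, and the GC box in 4 of 8, against 32.7%. All 250 bases of the Smug1 window and 59 of the Mbd4 window, both counted here, lie inside the gene as annotated. The E2F motif, TTTCGCGC or TTTGGCGC, was in none of the 8 and in 0.654% of all windows. These matches describe the letters of the windows, and no binding was measured. The members' windows held 5 to 28 CpG dinucleotides, beside a median of 6 over all windows. CACGTG and GGGCGG each contain a CpG, and what CpG content contributes to the shares was not tested. The genes lie apart from each other, on chromosomes 1 (Parp1), 5 (Ung), 6 (Mbd4), 7 (Xrcc1), 10 (Tdg), 11 (Lig3), 14 (Apex1) and 15 (Smug1).

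Levels are given as the log2 signal relative to the 75th percentile of the same array, so that 0 is a signal at that percentile, and a probe's level is never set against that of another probe. The array's 75th percentile was a signal of 125 and 291 intensity units in HP1γ-null replicates 1 and 2, and 188 and 219 in wild-type replicates 1 and 2. The label of the genotype was checked with Cbx3, whose probe A_51_P160328 had levels of -1.95 and -1.59 in HP1γ-null pools, against 4.80 and 5.07 in wild-type pools (difference -6.70, SE 0.24, limma adjusted p = 0.044). Its second probe differed by -7.82 (adjusted p = 0.099). Across the tested probes, the HP1γ-null pools correlated at r = 0.943 with each other and the wild-type pools at 0.988. Between pools of different genotype r was 0.953 to 0.960, above that between the HP1γ-null pools.

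HP1γ-null replicate 2 stood apart in its germ cell markers. The summed linear level of the 9 germ cell marker genes with a named probe was 200.6 in HP1γ-null replicate 1 and 0.912 in HP1γ-null replicate 2, against 48.1 and 14.8 in the wild-type pools. In HP1γ-null replicate 2, 7 of these 9 genes were not well above background, the scanner software's mark for a spot clearly brighter than its surroundings: Dazl, Ddx4, Dppa3, Nanos3, Pou5f1, Sox2 and Tfap2c. None was below that mark in HP1γ-null replicate 1, and 1, Nanos3, in each wild-type pool. Dppa3, a defining gene of the germ line, had levels of 3.58 and -7.04 in HP1γ-null pools, against 1.60 and -0.26 in wild-type pools. The 7 endothelial markers were well above background in every pool, with sums of 122 and 157 in HP1γ-null pools and 225 and 242 in wild-type pools, as were the 5 leukocyte markers, with 85.0 and 67.6, against 83.1 and 105. Markers of gonadal soma summed to 3.30 and 7.56 in HP1γ-null pools and to 2.67 and 1.45 in wild-type pools. Of these 7 genes, 4 were not well above background in HP1γ-null replicate 1 and 4 in each wild-type pool. Stroma markers summed to 7.43 and 34.8 in HP1γ-null pools, against 11.7 and 4.87 in wild-type pools. Col1a1, Col3a1, Pdgfra and Dcn were higher in HP1γ-null replicate 2 than in replicate 1. Postn went the other way, with 1.94 and -1.96 in HP1γ-null replicates 1 and 2. In HP1γ-null replicate 2, 2 of the 9 germ cell markers, Dppa5a and Dnd1, were well above background. Dnd1 had levels of 1.77 and -2.05 in HP1γ-null pools, against -0.59 and -1.55 in wild-type pools, and Dppa5a at its brightest probe 7.45 and -0.84, against 5.37 and 3.66. In pooled RNA of this kind, fewer cells of a type and less RNA per cell cannot be told apart. What these marker differences contribute to the members' values was not tested.

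None of the 8 genes differed between genotypes by the test. All 11 probes were well above background on all 4 arrays, with signals of 32.2 to 2724 intensity units. Their differences, HP1γ-null minus wild-type, lay between -0.18 and 0.42 on the log2 scale, with limma adjusted p from 0.78 to 1.00 and none at an unadjusted p under 0.05. Among all tested probes, 0.00891% passed the threshold of 0.05 (2 of 22440, both lower in HP1γ-null, with 1685 at an unadjusted p under 0.05). No overlap between the genotypes' levels was seen for 4 of the 11 member probes, against 38.2% of all tested probes. They were higher in both HP1γ-null pools for 3, against 15.1% of all probes, and lower for 1, against 23%. The total is near the background and is no result about the members, and the counts in each direction rest on 3 probes and 1 probe. Taking each gene's brightest probe, 5 genes had a higher and 3 a lower mean in HP1γ-null pools. Among all 22440 tested probes, 9355 had a higher and 13085 a lower mean. The median difference of the members was 0.12, beside -0.06 over all tested probes. Scaling to the spiked-in control RNA turned the direction of that median, to -0.42, as it moved the median of all probes to -0.61. Under it Apex1 (-0.19), Xrcc1 (-0.34), Mbd4 at A_51_P203192 (-0.32), Ung (-0.13) and Parp1 (-0.50) were lower in HP1γ-null pools, so the directions given below hold relative to the array's 75th percentile.

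**Figure D1:**
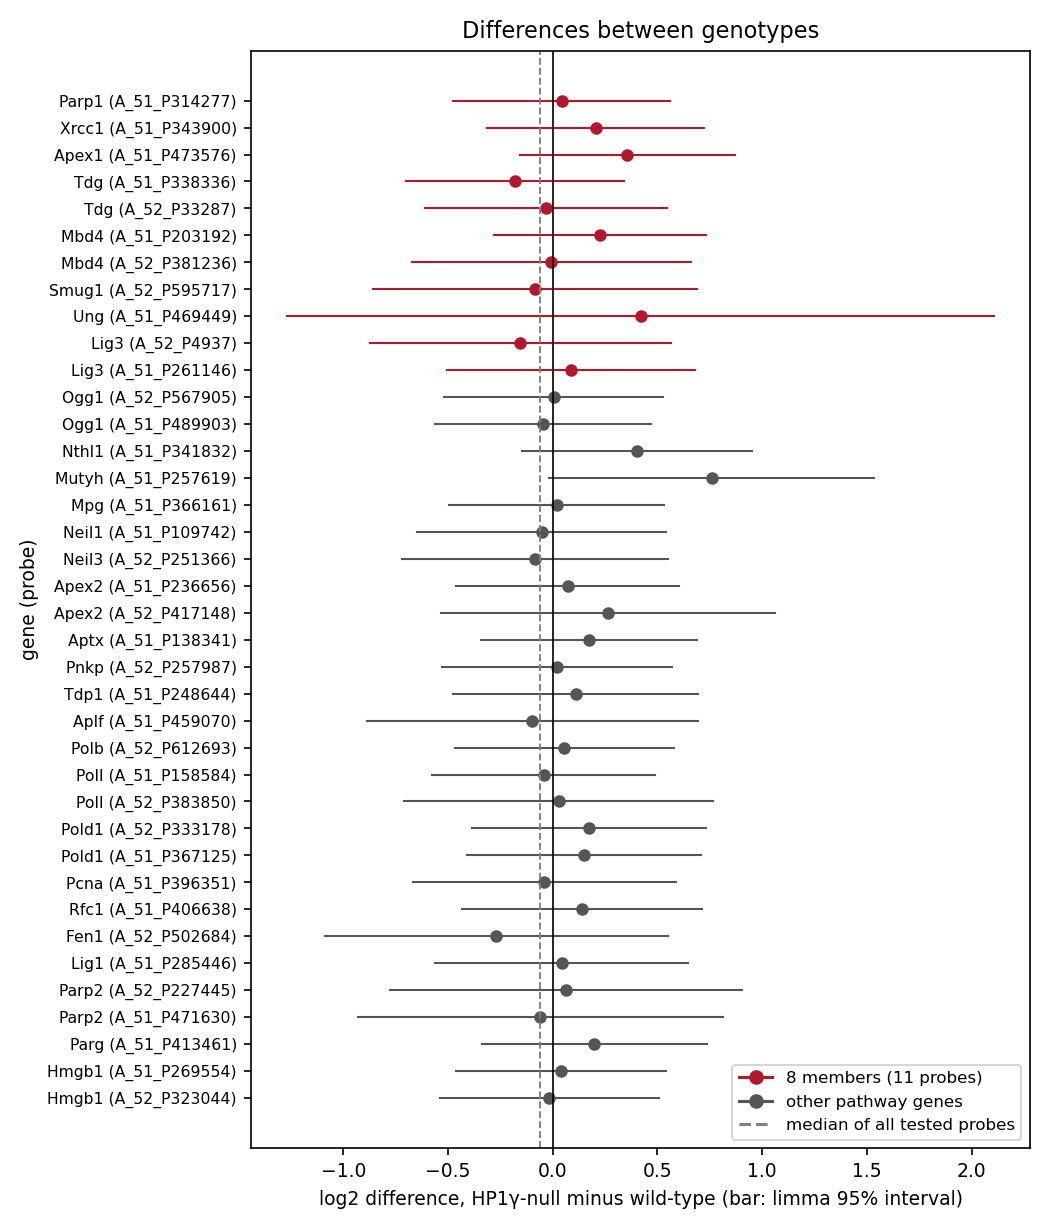
Log2 difference, HP1γ-null minus wild-type (x axis), for the 11 probes of the 8 members in red and the 27 tested probes of the other pathway genes in grey, as points with 95% confidence intervals from the limma fit (2 pools per genotype); the dashed line is the median of all tested probes, -0.06. Every interval spans 0, and that of Ung, from -1.27 to 2.11, is the widest of the 11 members' intervals.

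Among the glycosylases, Tdg cuts thymine and oxidised methylcytosines out of pairs with guanine. Its probe A_51_P338336 had levels of 2.86 and 2.72 in HP1γ-null pools, against 2.96 and 2.98 in wild-type pools. Both HP1γ-null pools were below both wild-type pools, by a mean of -0.18 (SE 0.19, limma adjusted p = 0.90), a fold of 0.882. Tdg was the only member with this pattern. The second probe, A_52_P33287, which the array lists under another transcript accession, gave -1.25 and -1.03 in HP1γ-null pools, against -1.22 and -1.0 in wild-type pools. There the genotypes overlapped, and the difference was -0.03 (SE 0.22), so the order of the pools at the first probe was not seen at the second.

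Mbd4 joins a domain that binds methylated CpG to a glycosylase that cuts thymine or uracil from mismatches with guanine. Probe A_51_P203192 gave -0.39 and -0.37 in HP1γ-null pools, against -0.59 and -0.63 in wild-type pools. Both HP1γ-null pools were above both wild-type pools (difference 0.23, SE 0.19, limma adjusted p = 0.86), a fold of 1.17. Probe A_52_P381236 gave -1.20 and -1.68 in HP1γ-null pools, against -1.44 and -1.42 in wild-type pools. At this probe the HP1γ-null pools lay on either side of the wild-type pools, and the difference was -0.01 (SE 0.25).

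Smug1, a glycosylase that removes uracil and its oxidised forms, had levels of -1.85 and -1.21 in HP1γ-null pools, against -1.53 and -1.36 in wild-type pools. The wild-type pools lay between the HP1γ-null pools. The difference was -0.09 (SE 0.29, limma adjusted p = 0.98), with a 95% confidence interval of -0.86 to 0.69.

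Ung removes uracil from DNA, both after its misincorporation at replication and after deamination of cytosine. Its single probe, A_51_P469449, gave 3.07 and 1.31 in HP1γ-null pools, against 1.93 and 1.62 in wild-type pools. HP1γ-null replicate 1 was the highest of the 4 arrays and HP1γ-null replicate 2 the lowest, with both wild-type pools between them. The means were 2.19 ± 1.25 in HP1γ-null pools and 1.77 ± 0.22 in wild-type pools (SD, n = 2 pools each), and the difference of 0.42 (SE 0.63, limma adjusted p = 0.94) had a 95% confidence interval of -1.27 to 2.11. Without HP1γ-null replicate 1 the difference was -0.46, and without HP1γ-null replicate 2 it was 1.30, so its direction rested on which pool was kept.

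**Figure D2:**
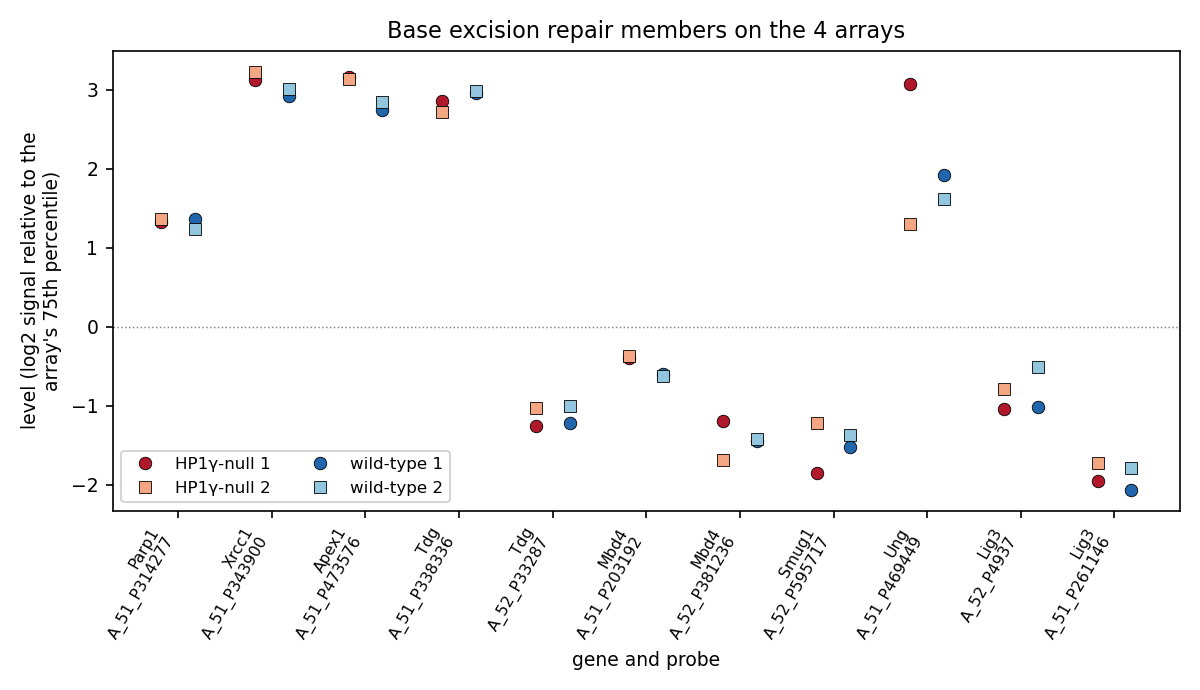
Level of each of the 11 probes (x axis) on each of the 4 arrays, as the log2 signal relative to the array's 75th percentile (y axis), with the HP1γ-null pools left of the wild-type pools at each probe, circles for replicate 1 and squares for replicate 2. Ung in HP1γ-null replicates 1 and 2 lies at 3.07 and 1.31, above and below both wild-type pools.

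Apex1, the endonuclease that nicks the strand at an empty site, had levels of 3.16 and 3.13 in HP1γ-null pools, against 2.74 and 2.84 in wild-type pools. The HP1γ-null pools, which differed by 0.03 from each other, were both above the wild-type pools. Means were 3.15 ± 0.02 in HP1γ-null pools and 2.79 ± 0.07 in wild-type pools (SD, n = 2 pools each), a fold of 1.28. The difference of 0.36 (SE 0.19, limma adjusted p = 0.78, unadjusted p = 0.13) had the lowest p of the 11 probes and did not pass the test. It was 0.31 to 0.41 when each pool was left out in turn.

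Parp1 detects the nick and builds poly(ADP-ribose) on itself and nearby proteins. Its levels were 1.33 and 1.36 in HP1γ-null pools, against 1.36 and 1.23 in wild-type pools. The 4 arrays lay within 0.13 of each other, the narrowest range of the 11 probes, and the difference was 0.04 (SE 0.19), with a 95% confidence interval of -0.47 to 0.56.

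Xrcc1 is the scaffold that binds the ADP-ribose at the nick and holds the polymerase and ligase. It gave 3.12 and 3.23 in HP1γ-null pools, against 2.93 and 3.01 in wild-type pools. Both HP1γ-null pools were above both wild-type pools, with means of 3.18 ± 0.08 in HP1γ-null pools and 2.97 ± 0.06 in wild-type pools (SD, n = 2 pools each). The difference was 0.21 (SE 0.19, limma adjusted p = 0.88), a fold of 1.15.

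Lig3 is the ligase that works with Xrcc1. Its probe A_52_P4937 gave -1.04 and -0.78 in HP1γ-null pools, against -1.01 and -0.50 in wild-type pools. Probe A_51_P261146 gave -1.95 and -1.73 in HP1γ-null pools, against -2.06 and -1.79 in wild-type pools. The genotypes overlapped at both probes, and the differences had opposite signs, -0.15 (SE 0.27) and 0.09 (SE 0.22).

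The members other than Ung varied little over the 4 pools. Their 10 probes had ranges of 0.13 to 0.63, beside a median of 0.63 over all tested probes. The 95% confidence intervals of their differences stayed within -0.87 to 0.87, which is a fold of at most 1.83 in either direction. The 2 HP1γ-null pools differed by 0.02 to 0.63 at these probes, and the 2 wild-type pools by at most 0.51. In 5 of the 10 the wild-type pools were at least as far apart as the HP1γ-null pools. Over all 11 member probes, Ung included, the median gap was 0.22 between the HP1γ-null pools and 0.13 between the wild-type pools, beside medians of 0.42 and 0.16 over all tested probes. All 11 were well above background on all 4 arrays, but of the 22440 tested probes 20320 were, so these comparisons are between unlike sets. The 27 tested probes of the other pathway genes varied about as little, with a median range of 0.33, beside 0.33 over the 11 member probes. Their median gaps were 0.23 between the HP1γ-null pools and 0.11 between the wild-type pools. A range over 1 log2 unit was reached by 1 of the 11 member probes, that of Ung, and by 1 of those 27, against 24.1% of all tested probes. Without HP1γ-null replicate 1 it was reached by none of the 11, against 13.9% of all probes, and without HP1γ-null replicate 2 by 1, against 13.4%. The count of member probes without overlap became 8 without HP1γ-null replicate 1 and 9 without replicate 2, against 83.9% and 81.7% of all probes.

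**Figure D3:**
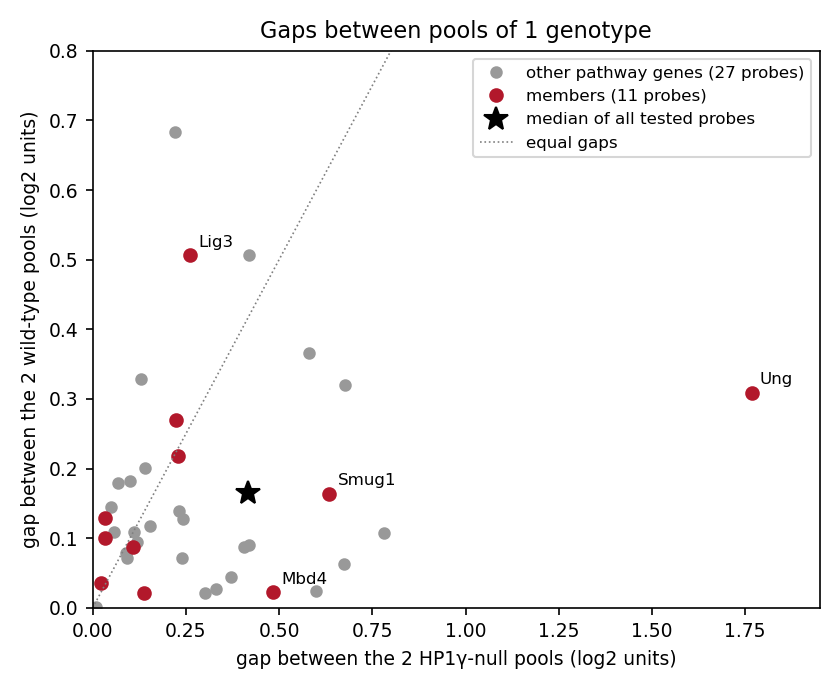
Size of the gap between the 2 HP1γ-null pools (x axis) against that between the 2 wild-type pools (y axis), in log2 units, for the 11 member probes in red and 27 probes of the other pathway genes in grey; the star is the median of all tested probes and the dotted line marks equal gaps. Ung lies at 1.77 between HP1γ-null pools and 0.31 between wild-type pools, and no other member probe has a gap above 0.63.

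The order of the 4 arrays at Ung, HP1γ-null replicate 1 above wild-type replicates 1 and 2 and HP1γ-null replicate 2 lowest, was that of 7 of the 8 tested germ cell markers (Ddx4, Dnd1, Dppa3, Dppa5a, Pou5f1, Sox2 and Tfap2c). It was also that of 3 of the 9 replication genes, Mcm4, Mcm7 and Pcna. Of the 21 other pathway genes tested, 4 had it, Lig1, Pcna, Tdp1 and Aplf. These counts take each gene's brightest probe, by which no tested marker of gonadal soma, endothelium, leukocytes, erythroid cells or stroma had it. A further probe of the leukocyte marker Ptprc, A_52_P11901, did have it, with 1.59 and 0.84 in HP1γ-null pools, against 1.55 and 1.54 in wild-type pools. Among all tested probes 10.5% had this order, and of the 11 member probes 1 did, that of Ung itself. The order was looked for after the values of Ung were seen, and the part that germ cell content has in it was not tested. The summed linear level of the replication genes was 244 and 173 in HP1γ-null pools, against 209 and 208 in wild-type pools.

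**Figure D4:**
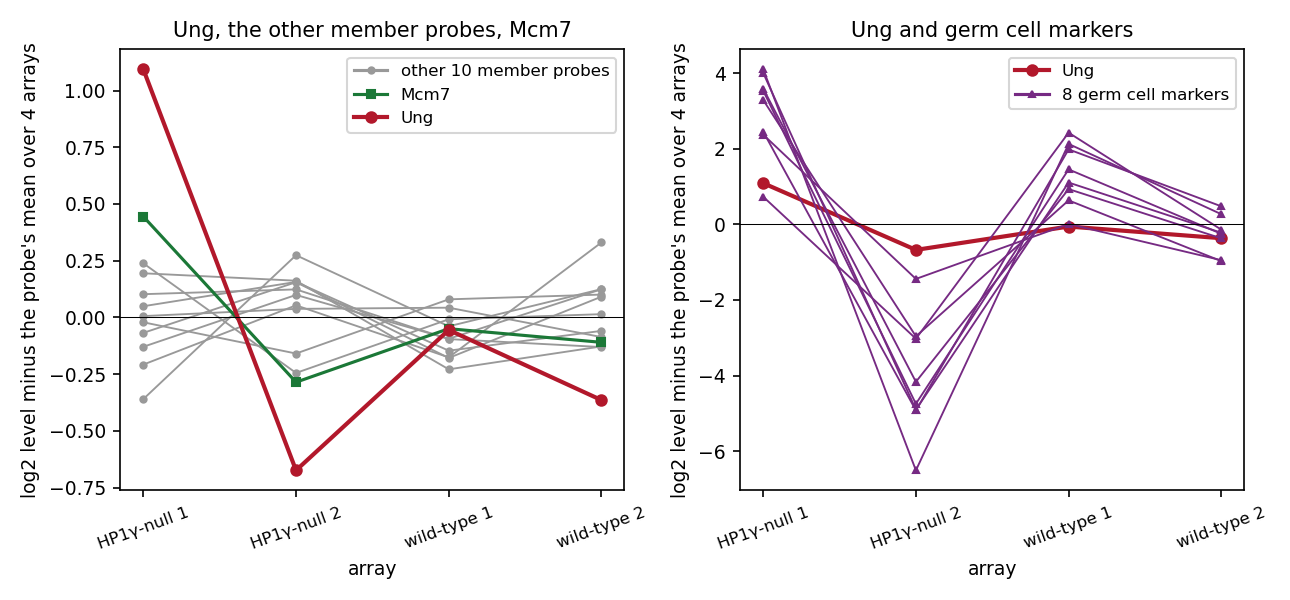
Log2 level on each array minus the probe's own mean over the 4 arrays, for Ung with the other 10 member probes and Mcm7 (left) and for Ung with the 8 tested germ cell markers (right, on a wider scale); lines only join the values of a probe. Ung is highest in HP1γ-null replicate 1 and lowest in HP1γ-null replicate 2, as are 7 of the 8 markers.

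The other genes of the pathway gave no call either. Of 22 further genes for glycosylases, end processing, gap filling, ligation and ADP-ribose turnover, 21 had a probe well above background, and the exception was Neil2. By limma, 0 of their 27 tested probes passed the adjusted threshold and 0 had an unadjusted p under 0.05. By brightest probe, 15 of the 21 had a higher and 6 a lower mean in HP1γ-null pools. Of the 22440 tested probes, 9355 had a higher and 13085 a lower mean. The median difference of the 21 was 0.04, or -0.50 when scaled to the spiked-in control RNA. The HP1γ-null pools were both above the wild-type pools for 5 of the 21 (Mutyh, Nthl1, Parg, Aptx and Hmgb1) and both below for none, by brightest probe, beside 15.1% of all tested probes above and 23% below without overlap.

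Mutyh, the glycosylase that removes adenine set opposite oxidised guanine, had the smallest p of these. It gave -1.47 and -1.89 in HP1γ-null pools, against -2.19 and -2.69 in wild-type pools (difference 0.76, SE 0.29, limma adjusted p = 0.67, unadjusted p = 0.053). The other Mutyh probe did not reach that brightness in any pool. Nthl1, a glycosylase for oxidised pyrimidines, gave -0.16 and -0.31 in HP1γ-null pools, against -0.74 and -0.54 in wild-type pools (difference 0.40, SE 0.21, adjusted p = 0.76). Parg, which takes poly(ADP-ribose) apart again, gave 1.94 and 1.84 in HP1γ-null pools, against 1.78 and 1.60 in wild-type pools. Aptx, which repairs abortive ligation ends, gave 0.52 and 0.61 in HP1γ-null pools, against 0.36 and 0.43 in wild-type pools. These 4 genes were named for having the smallest unadjusted p of the other pathway genes. The pools of each genotype stayed apart, which that choice favours, and no difference passed the threshold.

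The 5 fixed partners of the members, Polb, Fen1, Lig1, Pcna and Parp2, overlapped between genotypes. Polb, the polymerase that fills a gap of 1 base, gave 0.38 and 0.27 in HP1γ-null pools, against 0.33 and 0.22 in wild-type pools. Fen1, the flap endonuclease of repair by longer patches, gave 0.39 and 0.61 in HP1γ-null pools, against 0.43 and 1.11 in wild-type pools. Lig1, the ligase shared with replication, gave 5.26 and 4.89 in HP1γ-null pools, against 5.05 and 5.01 in wild-type pools. Lig1 and Pcna, the sliding clamp, both had the order of the arrays seen at Ung, with Pcna at 5.09 and 4.68 in HP1γ-null pools and 4.97 and 4.88 in wild-type pools. Parp2, the second nick sensor, had its lowest level in HP1γ-null replicate 1 and its highest in HP1γ-null replicate 2 at both probes, with -1.02 and -0.34 in HP1γ-null pools against -0.91 and -0.59 in wild-type pools at probe A_52_P227445. Its order was the reverse of that of Ung, as was that of the member Smug1.

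Likeness was measured as the root-mean-square difference of levels, each centred on its own mean over the 4 arrays, against 60 genes of the pathway and marker lists. Each value is given beside the root-mean-square of the member's own centred levels, which a gene of constant level would give. Nearest to Xrcc1 was Aptx, at 0.018 log2 units beside 0.11, and nearest to Parp1 was Ogg1, a glycosylase for oxidised guanine, at 0.021 beside 0.052. Apex1 was nearest to Nthl1, at 0.057 beside 0.18. Mbd4 was nearest to Aptx, at 0.053 beside 0.11, and Smug1 to Parp2, at 0.094 beside 0.24. Lig3 was nearest to Csf1r, a leukocyte marker, at 0.072 beside 0.22. For Tdg and Ung even the nearest gene was little alike. Tdg had Poll, a polymerase of gap filling, at 0.077 beside 0.10, and Ung had Mcm7, a subunit of the replicative helicase, at 0.40 beside 0.67. Mcm7 gave 5.29 and 4.56 in HP1γ-null pools, against 4.80 and 4.74 in wild-type pools, the same order with smaller steps. With only 4 arrays, a small value means that 2 genes had alike levels in these pools.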

How the data were processed

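Each pool's total RNA (4 ng) was amplified and labelled with Cy3, per the labels' protocols, for a one-colour Agilent array of its own. Per the file headers, the deposited intensity values are background-subtracted processed signals from Agilent Feature Extraction, version 10.7.3.1 in the submitters' processing notes, not scaled from array to array. The deposited value table repeats these intensity values, off by at most 0.50%. The deposited flags of other kinds (control, outlier, well above background, saturated) were used as given. The slide and the scan were common to all arrays.

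Computed here were log2 signals minus the array's 75th percentile over 43379 spots that are not controls, averaged over the spots of a probe, with outlier spots (83 to 104 per array) left out. That removed 21 of 41174 probes. Of the 41153 kept, 26877 were named through RefSeq accessions of GRCm38.p6 (18322 genes), which also gave the promoters. The test took the 22440 probes that were well above background in both pools of either genotype (53.3% to 63.3% of spots were, per array), with limma 3.58.1 in R 4.3.3 (lmFit, eBayes without trend, two-sided). P-values were adjusted by Benjamini-Hochberg over all of these probes, with a threshold of 0.05. Residual degrees of freedom were 2 per probe and the prior 2.43. The number of arrays limits the precision. Tables were joined in Python 3.11.15 with pandas 2.3.3, and the fit was tested on simulated data.

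Alternatives were other scalings, background corrections, filters and weights, the value table, a replicate block, and each pool left out. The normexp alternative used the median signal and median background with an offset of 50. Named were all probes of the members, the other pathway genes with the 4 smallest p, 5 fixed partners (Polb, Fen1, Lig1, Pcna, Parp2), the nearest gene to a member and Cbx3. Genes outside this rule were named after their values were seen. The members, gene lists and motifs were chosen with earlier results of these data known.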

Additional observations from a re-analysis of the deposited data

How the results depend on the processing

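No member probe passed the threshold under any of the 15 alternatives (lowest adjusted p 0.14, for Ung), and 145 of the 165 member differences kept their direction. The other 20 reversed, and their cause was not tested. The changes of filter, the trend, the array weights and the replicate block used the same levels and left each difference unchanged. No direction could reverse under them, so their part of the 145 was fixed in advance. Scaling to the spiked-in control RNA, 7 of whose 10 probes were used, moved the median of all probes to -0.61 and gave -0.50 for Parp1, -0.34 for Xrcc1, -0.19 for Apex1, -0.32 for Mbd4 at A_51_P203192, -0.13 for Ung and -0.46 for Lig3 at A_51_P261146. Relative to that shift each of these was higher. Under it the median of the members was -0.42, against 0.12, and that of the other pathway genes -0.50, against 0.04. Normexp correction gave 0.037 for Tdg at A_52_P33287 and 0.063 for Smug1, normexp with quantile scaling 0.004 for the same Tdg probe, and centring on detected probes 0.003 for Mbd4 at A_52_P381236. Leaving out each pool in turn gave -0.021 to 0.11 for Parp1, -0.14 to 0.084 for Tdg at A_52_P33287, -0.25 to 0.24 for Mbd4 at A_52_P381236, -0.40 to 0.23 for Smug1, -0.46 to 1.30 for Ung, -0.41 to 0.10 and -0.048 to 0.22 for Lig3 at A_52_P4937 and A_51_P261146. The count of probes passing, 2 in the fit reported, was 146 with spike scaling (111 higher, 35 lower), 5 with normexp and quantile scaling, 0 with no filter, 1 for probes well above background on all 4 arrays, 7 with a trend, 5 with array weights, and 0 to 0 by limma with a pool left out (607 to 5644 at an unadjusted p under 0.05). The labels do not pair the pools, and same-numbered pools deviated together at r = 0.066. A replicate block left each difference unchanged and gave 13 calls (8 higher, 5 lower), none a member. Chosen after seeing the data, leaving out a HP1γ-null pool gave 8 to 9 member probes without overlap, against 4, and 0 to 1 with a range over 1 log2 unit. Over all tested probes, the share without overlap rose likewise, to 83.9% and 81.7% from 38.2%. The share with that range was 13.9% and 13.4%, against 24.1%. Probes near background limit the counts over the whole array, while all 11 member probes were well above background on all 4 arrays. The 2 pools per genotype limit what could be seen, and Ung, with an SE of 0.63, is the least precise of the 11.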
